A study of Mus musculus with 6 samples.

Results

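The 10 immune checkpoint genes described here are Cd274, Pdcd1lg2, Cd80, Cd86, Vsir, Pdcd1, Ctla4, Lag3, Havcr2 and Tigit. They were chosen by name, with no measured value in the rule, and all 10 were found among the 23381 gene symbols of the deposited table. RNA came from mammary tumours grown from 4T1 cells, a mammary carcinoma line of Balb/c origin, in Balb/c mice given as 10 weeks old. The labels give an injection of 500000 cells into an inguinal fat pad, and established tumours were then treated 3 times weekly for 3 weeks. The Vismodegib group (3 libraries) received 2 mg per mouse of this Smoothened antagonist, which blocks Hedgehog signalling, and the DMSO group (3 libraries) received the vehicle. The labels state no mutation in the host mice. The labels do not say that each library came from its own animal, so p-values measure the spread between these libraries, which may be technical.

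Immune checkpoints are pairs of surface proteins that restrain lymphocytes. PD-1 on activated T cells receives PD-L1 from tumour and myeloid cells or PD-L2 from dendritic cells and macrophages, and recruits phosphatases that dampen antigen receptor signalling. CTLA-4 competes with the activating receptor CD28 for the ligands CD80 and CD86 on antigen-presenting cells, while LAG-3, TIM-3 and TIGIT are further inhibitory receptors of T and NK cells. VISTA is carried mainly by myeloid cells and also by T cells. Interferon gamma from T and NK cells is a strong inducer of PD-L1, in part through IRF1.

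In whole tumours, none of the 10 genes separated Vismodegib from DMSO. Of the 9 genes expressed high enough to be tested (averaging 0.5 RPKM or more in the 6 libraries), 0 had an adjusted p under 0.05 by limma, where 0% of all 11818 genes tested passed (266 had an unadjusted p under 0.05). Without DMSO replicate 1, 19 genes passed, and no member was among them. The groups overlapped in all 10 genes, Ctla4 included, which was not among the genes tested. Of all genes tested, 5.03% had groups that did not overlap (4.29% higher and 0.745% lower in Vismodegib). With a share this small, overlap in all of so few genes does not set them apart. Libraries of 1 group differed: within DMSO, Tigit ran from 0.726 to 24.3 RPKM and Cd274 from 2.62 to 10.7 RPKM. Within Vismodegib, Tigit ran from 0.488 to 3.55 RPKM and Cd274 from 2.44 to 4.73 RPKM. RPKM counts reads relative to the length of the gene and the depth of the library. In bulk tissue, fewer cells of a type and less RNA per cell cannot be told apart.

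Genes and their neighbourhoods are given on mm10. Cd274 (ENSMUSG00000016496.7, chromosome 19, 29367455 to 29388095, plus strand) and Pdcd1lg2 (ENSMUSG00000016498.10, chromosome 19, 29410919 to 29471161, plus strand) lie 22823 bases apart. Cd86 (ENSMUSG00000022901.13, chromosome 16, 36603869 to 36666081, minus strand), Cd80 (ENSMUSG00000075122.5, chromosome 16, 38455561 to 38496335, plus strand) and Tigit (ENSMUSG00000071552.5, chromosome 16, 43648867 to 43664146, minus strand) share chromosome 16. Ctla4 (ENSMUSG00000026011.13, 60887000 to 60915832, plus strand) and Pdcd1 (ENSMUSG00000026285.7, 94038305 to 94052553, minus strand) are on chromosome 1. Lag3 is on chromosome 6 (ENSMUSG00000030124.2, 124904361 to 124911705, minus strand), Vsir on chromosome 10 (ENSMUSG00000020101.14, 60346851 to 60372684, plus strand) and Havcr2 on chromosome 11 (ENSMUSG00000020399.14, 46454935 to 46481255, plus strand). In the GENCODE M21 annotation, exons of Cd274 overlap an antisense gene, AC119228.1, and the use of strand is not given in the sources used here, so reads of the pair cannot be told apart. No exon of the other 9 genes overlapped an exon of another gene.

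Upstream sequences are shown for the adjacent ligand genes Cd274 and Pdcd1lg2, and for Tigit, the gene whose level varied most between libraries. They hold the 250 bases before the RefSeq start (GRCm38.p6, the mm10 assembly), read 5′ to 3′ along the gene. Capitals mark GAAA, or TTTC where it lies on the other strand, the core that IRF proteins and the interferon-stimulated response element share.
Cd274 (chr19:29367188-29367437, plus strand): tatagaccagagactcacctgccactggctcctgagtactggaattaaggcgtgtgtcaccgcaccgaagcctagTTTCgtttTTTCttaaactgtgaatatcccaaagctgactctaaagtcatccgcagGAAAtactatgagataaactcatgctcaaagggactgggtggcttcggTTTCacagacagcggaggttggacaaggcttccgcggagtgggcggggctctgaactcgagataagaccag
Pdcd1lg2 (chr19:29410669-29410918, plus strand): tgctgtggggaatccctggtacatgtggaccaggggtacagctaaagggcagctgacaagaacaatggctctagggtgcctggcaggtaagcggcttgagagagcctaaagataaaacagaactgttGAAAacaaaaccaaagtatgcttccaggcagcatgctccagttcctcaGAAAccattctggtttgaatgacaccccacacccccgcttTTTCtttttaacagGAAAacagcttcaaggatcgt
Tigit (chr16:43664185-43664434, minus strand): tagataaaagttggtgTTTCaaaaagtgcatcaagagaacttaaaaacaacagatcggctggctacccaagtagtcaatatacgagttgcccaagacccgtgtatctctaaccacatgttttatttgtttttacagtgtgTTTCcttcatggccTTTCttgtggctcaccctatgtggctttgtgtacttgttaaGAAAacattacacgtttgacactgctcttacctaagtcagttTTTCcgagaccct

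RefSeq's table held upstream sequences for 8 of the 10 genes. None of the 8 held the full response element (GAAA, any 2 bases, GAAA) on either strand, which 2.98% of all 32851 promoters in the table held. The shorter GAAA core occurred 4 times upstream of Cd274, 4 times upstream of Pdcd1lg2 and 5 times upstream of Tigit. At least 4 occurrences were found in 28.9% of all promoters and at least 5 in 16.8%. Ctla4 also had 4, Cd80, Pdcd1 and Havcr2 had 2 each, and Vsir had 0, against a median of 2 over all promoters. These are matches of letters in a short window, and they describe no site.

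Depth was recovered from the steps of the values and came to 41600000, 42700000 and 58000000 reads in Vismodegib replicates 1, 2 and 3, and to 37500000, 34800000 and 40500000 reads in DMSO replicates 1, 2 and 3. With these totals Pdcd1, Havcr2 and Tigit gave whole numbers of reads in every library, within 0.02 reads. The lowest number of reads behind a value was 25 for Tigit, and about 45.4 for Cd80, 46.5 for Cd86 and 5.81 for Ctla4, taken over the longest transcript. Counting error alone then comes to 20% for Tigit and 41.5% for Ctla4, and to 2.78% for Vsir. Ctla4, with a mean of 0.246 RPKM, fell under the filter and was compared by an exact permutation test in place of limma. The cell line's epithelial origin was plain in all 6 libraries: Epcam, an epithelial adhesion molecule, was at 470, 449 and 251 RPKM in Vismodegib and at 146, 191 and 288 RPKM in DMSO.

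The checkpoint transcripts spanned a wide range of levels per length. Over the 6 libraries Vsir averaged 12.1 ± 4.05 RPKM and Lag3 12.0 ± 3.88 RPKM (SD, n = 6), and each was above the other in 3 libraries. Tigit averaged 6.48 ± 9.14 RPKM, which DMSO replicates 2 and 3 alone exceeded, and it was above Cd274, at 5.07 ± 3.10 RPKM, in 1 library. Pdcd1lg2 at 2.69 ± 1.36 RPKM and Pdcd1 at 2.67 ± 0.616 RPKM did not differ beyond their spread. Havcr2 followed at 1.65 ± 0.613 RPKM, then Cd86 at 1.03 ± 0.413 RPKM and Cd80 at 0.824 ± 0.369 RPKM, with Cd86 above Cd80 in 5 of 6 libraries. Ctla4 was the lowest of the 10 in 6 of 6 libraries. Cd274 exceeded its neighbour Pdcd1lg2 in 6 of 6.

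**Figure D1:**
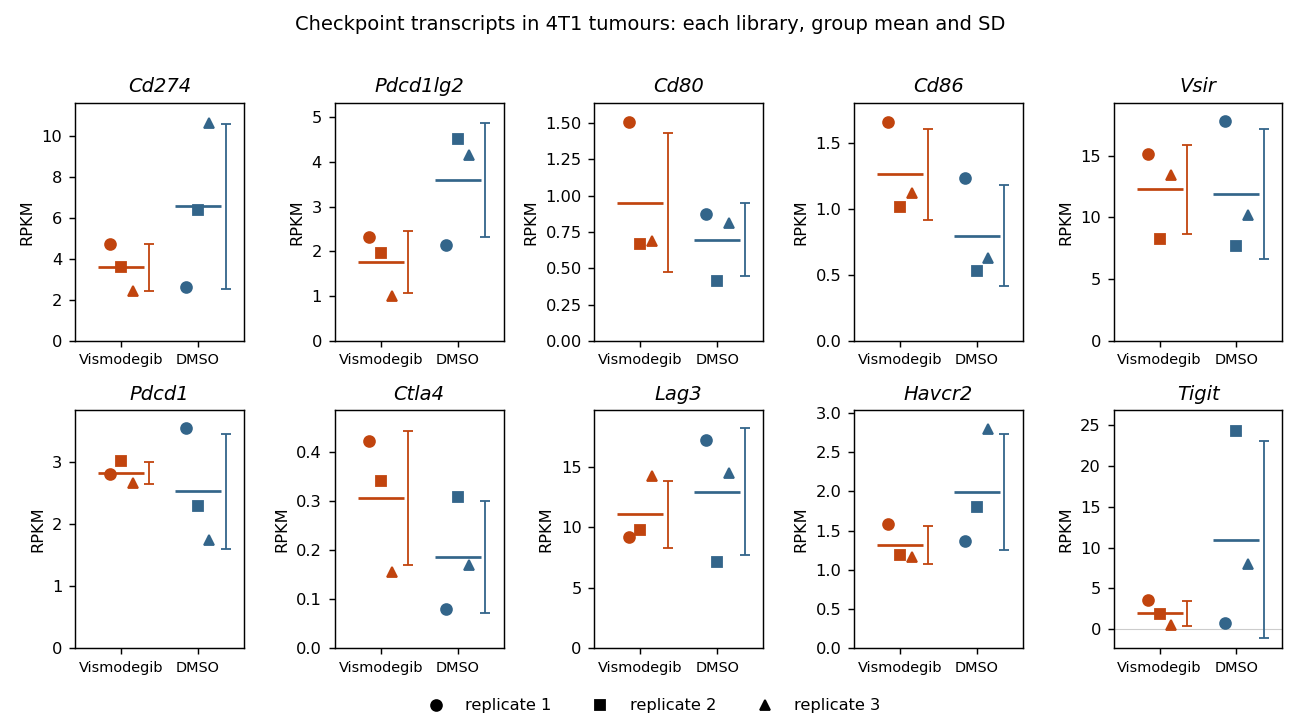
RPKM of each checkpoint gene in each library, with Vismodegib left and DMSO right in every panel; symbols give the replicate, horizontal lines the group mean and bars the SD (n = 3). The groups overlap in all 10 panels, and DMSO replicate 1 lies below DMSO replicates 2 and 3 in Cd274, Pdcd1lg2 and Tigit.

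Cd274 encodes PD-L1, the ligand that tumour and myeloid cells present to PD-1. It measured 4.73, 3.59 and 2.44 RPKM in Vismodegib replicates 1, 2 and 3, against 2.62, 6.41 and 10.7 RPKM in DMSO replicates 1, 2 and 3. DMSO replicates 2 and 3 were above every Vismodegib library, and DMSO replicate 1 lay within their range. Means were 3.58 ± 1.15 RPKM in Vismodegib and 6.56 ± 4.02 RPKM in DMSO (SD, n = 3 each). The difference in log2(RPKM + 0.5), Vismodegib minus DMSO, was -0.65 (SE 0.458) with a 95% interval from -1.69 to 0.39 and an adjusted p = 1 by limma. It was -1.14 without DMSO replicate 1 and -0.23 without DMSO replicate 3.

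Pdcd1lg2 encodes PD-L2, the second PD-1 ligand, which dendritic cells and macrophages make. It had 2.33, 1.97 and 1.002 RPKM in Vismodegib replicates 1, 2 and 3, against 2.15, 4.51 and 4.16 RPKM in DMSO replicates 1, 2 and 3. The groups overlapped through DMSO replicate 1, which lay below Vismodegib replicate 1. Group means were 1.77 ± 0.685 RPKM in Vismodegib and 3.61 ± 1.27 RPKM in DMSO. Its log2 difference of -0.85 (SE 0.354) had an interval from -1.66 to -0.05. Pdcd1lg2 was the member with the smallest unadjusted limma p (0.0401), which does not survive adjustment (adjusted p = 1). Of all genes tested, 2.25% had an unadjusted p under 0.05, and 0.313% had it while lower in Vismodegib.

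The calls for both PD-1 ligands depended on how the libraries were weighted. When limma estimated a weight for each library, an estimation that stopped short of convergence, DMSO replicate 3 received 7.28 and DMSO replicates 1 and 2 received 0.319 and 0.316. In that fit 3 of the 9 tested members passed, all lower in Vismodegib. Adjusted p was 0.0387 for Cd274, 0.0419 for Pdcd1lg2 and 0.0464 for Havcr2, with log2 differences of -1.29, -0.91 and -0.82. Over the 16 alternatives run for each of these genes, adjusted p ran from those values up to 1. With these weights 3.55% of all genes tested passed and 0.965% passed as lower. In that fit the DMSO mean rests mostly on DMSO replicate 3, and Vismodegib replicates 1, 2 and 3 received weights of 1.26, 2.34 and 0.461. Cd274 and Havcr2 had their highest values in DMSO replicate 3, and Pdcd1lg2 in DMSO replicate 2. The cause of these passes was not tested.

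Cd80 and Cd86 encode the B7 ligands through which antigen-presenting cells engage CD28 and CTLA-4. Cd80 measured 1.505, 0.664 and 0.685 RPKM in Vismodegib replicates 1, 2 and 3, and 0.872, 0.411 and 0.808 RPKM in DMSO replicates 1, 2 and 3. Vismodegib replicate 1 was the high library, and the others of both groups intermixed. The log2 difference of Cd80 was 0.25 with an interval from -0.45 to 0.96, and it was -0.005 without Vismodegib replicate 1. Cd86 was at 1.65, 1.01 and 1.12 RPKM in Vismodegib and at 1.23, 0.525 and 0.628 RPKM in DMSO. DMSO replicates 2 and 3 lay below all Vismodegib libraries, and DMSO replicate 1 lay inside the Vismodegib range. Cd86 averaged 1.26 ± 0.345 RPKM in Vismodegib and 0.795 ± 0.382 RPKM in DMSO. Its log2 difference of 0.46 (SE 0.294), with an interval from -0.20 to 1.13, had an adjusted p = 1 by limma.

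Vsir encodes VISTA, a B7 family member of myeloid and T cells. It measured 15.2, 8.23 and 13.4 RPKM in Vismodegib replicates 1, 2 and 3, against 17.8, 7.68 and 10.2 RPKM in DMSO replicates 1, 2 and 3. Each group held high and low libraries, and the means were close, at 12.3 ± 3.61 RPKM in Vismodegib and 11.9 ± 5.27 RPKM in DMSO. The log2 difference was 0.08 with an interval from -0.75 to 0.92, and it ran from -0.17 without DMSO replicate 2 to 0.41 without DMSO replicate 1.

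**Figure D2:**
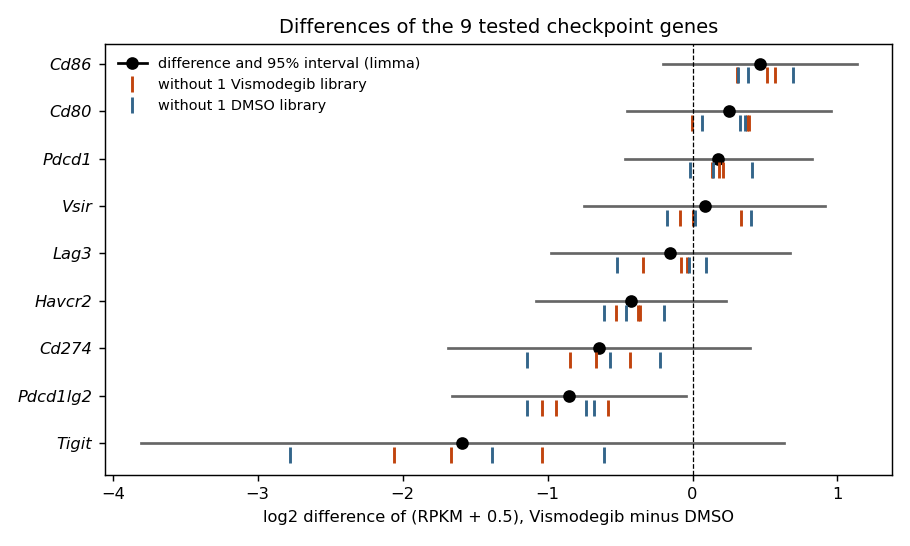
Log2 difference of RPKM + 0.5, Vismodegib minus DMSO, for the 9 tested checkpoint genes; black points and lines are limma's estimate and 95% interval, and coloured ticks are the estimate with 1 library left out. Tigit spans -2.78 to -0.61 across these ticks, while those of Lag3, Vsir, Pdcd1 and Cd80 fall on both sides of 0.

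Pdcd1, which encodes PD-1, varied least over the 6 libraries of the 9 tested members on the log2 scale. It measured 2.80, 3.01 and 2.65 RPKM in Vismodegib replicates 1, 2 and 3, and 3.54, 2.29 and 1.74 RPKM in DMSO replicates 1, 2 and 3. All Vismodegib values fell inside the DMSO range. Means were 2.82 ± 0.178 RPKM in Vismodegib and 2.52 ± 0.922 RPKM in DMSO, and the log2 difference of 0.18 had an interval from -0.47 to 0.82. It was -0.02 without DMSO replicate 3 and 0.41 without DMSO replicate 1. Of all genes tested, 33.7% had a smaller SD over the 6 libraries on the log2 scale than Pdcd1.

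Ctla4 encodes the receptor that takes CD80 and CD86 from CD28, and regulatory T cells carry it constitutively. It measured 0.423, 0.342 and 0.155 RPKM in Vismodegib replicates 1, 2 and 3, and 0.0802, 0.308 and 0.1698 RPKM in DMSO replicates 1, 2 and 3. Taken over the longest transcript, these are 34.0, 28.2 and 17.4 reads in Vismodegib and 5.81, 20.7 and 13.3 reads in DMSO. The groups overlapped, and the log2 difference was 0.23 (two-sided exact permutation p = 0.3, where 0.1 is the smallest that 3 against 3 allows). It ran from 0.12 without DMSO replicate 1 and 0.13 without Vismodegib replicate 1 to 0.37 without Vismodegib replicate 3 and 0.36 without DMSO replicate 2. At this low level it also depended on the pseudocount, at 0.52 with 0.1 and 0.14 with 1. Foxp3, the transcription factor of regulatory T cells, was likewise near the floor, at 0.185, 0.0617 and 0.0554 RPKM in Vismodegib and at 0.133 and 0.0698 RPKM in DMSO replicates 1 and 3, with a value that rounds to nothing (1.54e-38) in DMSO replicate 2.

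Lag3, whose product binds MHC class II, was one of the highest transcripts of the set. It measured 9.19, 9.79 and 14.3 RPKM in Vismodegib replicates 1, 2 and 3, against 17.2, 7.10 and 14.5 RPKM in DMSO replicates 1, 2 and 3. The Vismodegib libraries lay within the DMSO range. The log2 difference of -0.15 had an interval from -0.97 to 0.67, and it was 0.09 without DMSO replicate 1 and -0.52 without DMSO replicate 2. Havcr2 encodes TIM-3, found on exhausted T cells and on macrophages and dendritic cells. It had 1.59, 1.19 and 1.17 RPKM in Vismodegib replicates 1, 2 and 3, against 1.36, 1.80 and 2.80 RPKM in DMSO replicates 1, 2 and 3. DMSO replicates 2 and 3 were above all Vismodegib libraries, as for Cd274. The log2 difference of Havcr2 was -0.42 (SE 0.288) with an interval from -1.08 to 0.23, and it was -0.20 without DMSO replicate 3.

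Tigit, whose product binds the poliovirus receptor and nectin-2, varied most of the members tested, with an SD of 1.76 over the 6 libraries on the log2 scale, beside 0.73 for Cd274 and 0.64 for Pdcd1lg2. It measured 3.55, 1.86 and 0.488 RPKM in Vismodegib replicates 1, 2 and 3, against 0.726, 24.3 and 7.96 RPKM in DMSO replicates 1, 2 and 3. These values rest on 136, 73 and 26 reads in Vismodegib and on 25, 777 and 296 reads in DMSO. Vismodegib replicate 3 was lowest and DMSO replicate 2 highest, 49.7 times apart. Vismodegib replicate 3 was also the deepest library, at 58000000 reads, and DMSO replicate 2 the shallowest, at 34800000 reads. DMSO replicate 1, at 37500000 reads, had Tigit at only 0.726 RPKM. The part of depth in the level of Tigit was not tested. Of all genes tested, 99.6% had a smaller SD on the log2 scale. The log2 difference was -1.59 (SE 0.976) with an interval from -3.81 to 0.63 and an adjusted p = 1. It was -2.78 without DMSO replicate 1 and -0.61 without DMSO replicate 2. In DMSO replicate 2, where Tigit was highest, T cell genes went both ways. Cd3e, which encodes a chain of the T cell receptor complex, was at 0.274 RPKM, its lowest value of the 6 libraries. Trbc1 at 24.5 RPKM and Cd8a at 1.96 RPKM had their highest values of the DMSO group there. The part of T cells in the level of Tigit was not tested.

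The members fell into patterns across libraries, and whether these follow treatment cannot be told from 3 libraries per group. Cd274, Pdcd1lg2, Havcr2 and Tigit were above their own mean in DMSO replicates 2 and 3 and below it in DMSO replicate 1 and in Vismodegib replicates 2 and 3. Over the 6 libraries, Cd274 and Havcr2 had Pearson's r = 0.94 and Spearman's rho = 0.94 (exact permutation p = 0.00417 and 0.0167). Adjusted over all 45 pairs of members, both came to 0.188. Without the 2 libraries farthest from the median of Cd274, r was 0.80. Cd274 and Pdcd1lg2, the neighbours whose upstream sequences are shown, had r = 0.87 and rho = 0.89 (exact permutation p = 0.0306 and 0.0333, adjusted p = 0.25 and 0.188), and r was 0.82 without the 2 farthest libraries. Pdcd1lg2 and Tigit had r = 0.91 and rho = 0.94 (exact permutation p = 0.0181 and 0.0167, adjusted p = 0.25 and 0.188), and r was 0.84 without the 2 farthest libraries. No pair passed after adjustment. No p-value had been planned for pairs. The permutation ignored the groups and what the libraries share in depth and composition, so it does not isolate a link between 2 genes.

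Other pairs ran in opposite directions or changed when 2 libraries were left out. Cd274 and its receptor Pdcd1 had r = -0.87 and rho = -0.66 (exact permutation p = 0.025 and 0.175, adjusted p = 0.25 and 0.637), and r was -0.99 without the 2 farthest libraries. Cd80 and Cd86 had r = 0.81 and rho = 0.83 (exact permutation p = 0.05 and 0.0583, adjusted p = 0.25 and 0.292). Without Vismodegib replicate 1 and DMSO replicate 2, the 2 libraries farthest from the median of Cd80, r was -0.08. Leaving these out also narrows the range of Cd80, so this cannot show what the relation rests on. Vsir was above its mean in Vismodegib replicates 1 and 3 and in DMSO replicate 1, and below it in the other libraries.

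**Figure D3:**
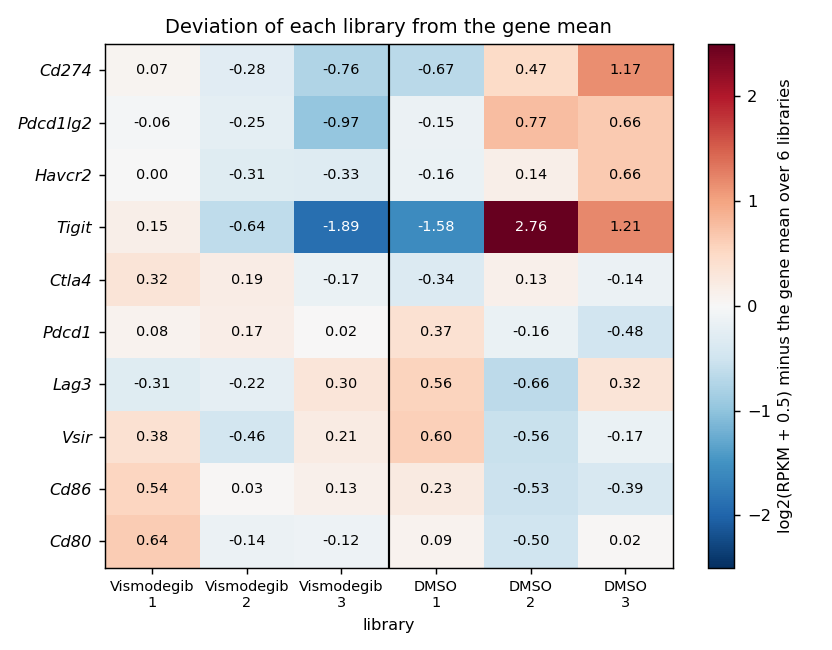
Deviation of each library from the gene's mean over the 6 libraries, in log2(RPKM + 0.5), for the 10 checkpoint genes (rows) with Vismodegib left of the black line and DMSO right of it. The top 4 rows are high in DMSO replicates 2 and 3; the deviations of Tigit run from -1.89 in Vismodegib replicate 3 to 2.76 in DMSO replicate 2.

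The genes most like each member were taken from 10135 other genes averaging 1 RPKM or more (10136 for Cd80), by Pearson's r of log2 values over the 6 libraries. With 6 points and so many genes, values near 1 arise for most patterns, and they describe these libraries only. Nearest to Cd274 were Tmem251 (r = 0.999), Smcr8 (0.994) and Fads2 (0.990). Nearest to Pdcd1lg2 were Btbd19 (0.996), Lmbr1l (0.991) and Sh3bp2 (0.988), and nearest to Tigit were Dvl1 (0.998), Parp3 (0.997) and Ube2o (0.995). The neighbours of Cd80 were Emc2, Arl14ep and Gng2, with r of 0.981 or more, and those of Cd86 were Mdfic, Morn2 and Tcta, with r of 0.990 or more. Vsir was closest to Ccr2 (0.998), the chemokine receptor of inflammatory monocytes, which was at 3.02, 0.651 and 2.27 RPKM in Vismodegib and at 4.21, 0.603 and 1.37 RPKM in DMSO. H2aw and Ptgs1 followed, with r of 0.993 and 0.991. For Pdcd1 the nearest were 9430038I01Rik, Rprl3 and Pik3ip1, and for Havcr2 they were Zzef1, Zfp91 and Cd79a. Gm29542 and Gm10110 were among the nearest to Lag3, and all 8 of these genes had r between 0.942 and 0.975.

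Levels were then set against a marker list of a cell type that can carry each, leaving out other carriers, such as tumour cells for Cd274. Receptors were taken relative to the mean log2(RPKM + 0.5) of the 11 tested genes of a T cell list, and ligands, Havcr2 and Vsir relative to 13 tested macrophage genes. Over the 6 libraries, Pearson's r with the T cell list was 0.42 for Pdcd1, 0.43 for Ctla4, -0.31 for Lag3 and 0.13 for Tigit. With the NK cell list, which was not used as a reference, r was -0.53, 0.48, -0.64 and 0.84 for the same genes in that order. With the macrophage list r was -0.01 for Cd274, 0.008 for Pdcd1lg2 and 0.17 for Havcr2. For Cd86, Cd80 and Vsir it was 0.49, 0.68 and 0.75. Relative levels are thus not levels per carrier cell. Relative to the T cell list, Lag3 was above the list mean in every library, at 1.04, 1.51 and 2.20 in Vismodegib and at 2.10, 0.98 and 2.13 in DMSO. Tigit was below it in Vismodegib, at -0.22, -0.61 and -1.71, while in DMSO it was at -1.75 in replicate 1 and at 2.69 and 1.30 in replicates 2 and 3. The difference between the groups was -1.59 for Tigit (exact permutation p = 0.4), -0.16 for Lag3 (p = 1), 0.17 for Pdcd1 (p = 0.6) and 0.23 for Ctla4 (p = 0.5). Leaving out DMSO replicate 1 gave -2.84 for Tigit, and leaving out DMSO replicate 2 gave -0.62. With 1 library left out, Pdcd1 ran from 0.05 to 0.34, Ctla4 from 0.05 to 0.34 and Lag3 from -0.53 to 0.12. All 4 receptors overlapped between the groups on this scale, where 4.97% of genes tested did not overlap, 4.56% while higher in Vismodegib.

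Relative to the macrophage list, Cd86 was the single member without overlap between the groups. It was at -3.83, -3.20 and -3.73 in Vismodegib, against -3.84, -4.31 and -4.21 in DMSO, a gap of little width between Vismodegib replicate 1 and DMSO replicate 1. The difference of 0.53 had a two-sided exact permutation p = 0.1, the smallest possible here. With a pseudocount of 1 the difference was 0.41 and p = 0.2 by the same exact test, so the groups then overlapped. It was 0.34 without Vismodegib replicate 2. Of all genes tested, 3.2% did not overlap when set against the same list, and 3.08% did so while higher in Vismodegib. The other ligands and myeloid members had differences of -0.58 for Cd274 (exact permutation p = 0.5), -0.78 for Pdcd1lg2 (p = 0.2), 0.32 for Cd80 (p = 0.2), -0.35 for Havcr2 (p = 0.5) and 0.15 for Vsir (p = 0.7). Without DMSO replicate 3 the difference was -0.12 for Cd274 and -0.10 for Havcr2, and without DMSO replicate 1 it was -1.17 for Cd274 and -0.63 for Havcr2. With 1 library left out, Pdcd1lg2 ran from -1.17 to -0.50, Cd80 from 0.16 to 0.46 and Vsir from -0.05 to 0.38.

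**Figure D4:**
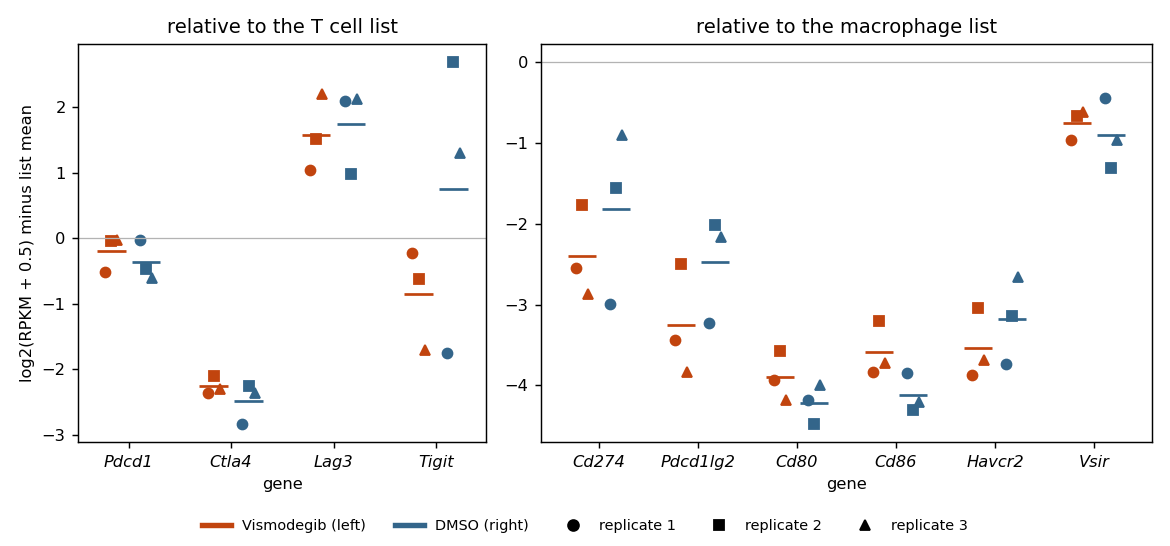
Level of each checkpoint gene relative to a marker list, as log2(RPKM + 0.5) minus the mean of the list's tested genes, with Vismodegib left and DMSO right for each gene, symbols for replicates and lines for group means. Left panel, receptors against the T cell list; right panel, ligands, Havcr2 and Vsir against the macrophage list. Tigit reaches 2.69 in DMSO replicate 2, and Cd86 is the gene whose groups do not overlap.

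The balance of ligand to receptor did not separate the groups either. The log2 ratio of Cd274 to Pdcd1 was 0.66, 0.22 and -0.10 in Vismodegib replicates 1, 2 and 3, and -0.37, 1.31 and 2.31 in DMSO replicates 1, 2 and 3. The difference was -0.82 (exact permutation p = 0.4), and that of Pdcd1lg2 to Pdcd1 was -1.03 (p = 0.3). Cd274 to Pdcd1 came to -0.21 without DMSO replicate 3 and to -1.55 without DMSO replicate 1, where Pdcd1lg2 to Pdcd1 was also -1.55. For Cd80 to Ctla4 the difference was 0.02 (exact permutation p = 1), for Cd86 to Ctla4 0.23 (p = 0.6) and for Ctla4 to Cd28 0.31 (p = 0.2), on log2(RPKM + 0.5). Cd28, the activating receptor that competes for the same ligands, was lower than Ctla4, at 0.0392, 0.0191 and 0.0197 RPKM in Vismodegib and at 0.0698, 0.0188 and 0.0727 RPKM in DMSO. These levels are far below the pseudocount, and the difference of Ctla4 to Cd28 was 0.79 with a pseudocount of 0.1 and 0.18 with 1.

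Of 16 measured partners of these receptors and ligands, 7 were tested, with 2 above 0, 5 below 0 and 0 past the threshold. Their median was -0.16, beside 0.05 over all genes tested. Pvr, which encodes the main ligand of TIGIT, was at 3.07, 2.86 and 1.61 RPKM in Vismodegib and at 1.56, 3.53 and 6.60 RPKM in DMSO. Its order of libraries was close to that of Cd274, with DMSO replicate 3 highest and DMSO replicate 1 and Vismodegib replicate 3 lowest. Nectin2, another TIGIT ligand, was steady, at 16.6 ± 2.13 RPKM in Vismodegib and 16.3 ± 3.59 RPKM in DMSO. Lgals9, which encodes the TIM-3 ligand galectin-9, was at 53.5 ± 9.03 RPKM in Vismodegib and 58.4 ± 8.95 RPKM in DMSO. The other partners with the smallest p were Hmgb1 (log2 difference 0.59), Rgmb (-0.39) and Lgals3 (-0.39), and Pvr itself had -0.41.

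Genes of the interferon gamma pathway, which induces PD-L1, were split: of 15 measured and tested, 9 were above 0, 6 below and 0 passed, with a median of 0.02. Ifng itself was at 1.65, 1.63 and 1.11 RPKM in Vismodegib and at 1.67, 1.13 and 1.53 RPKM in DMSO. Irf1, the transcription factor that acts on the PD-L1 gene, was at 71.4, 67.6 and 67.9 RPKM in Vismodegib, against 79.1, 83.6 and 99.8 RPKM in DMSO. The groups did not overlap in Irf1, as in 0.745% of all genes tested while lower in Vismodegib. Its log2 difference was -0.34, and it did not pass (limma, unadjusted p = 0.194). Socs1, the feedback inhibitor of this pathway, was at 18.2, 9.41 and 11.5 RPKM in Vismodegib and at 16.3, 34.4 and 35.5 RPKM in DMSO. Like Cd274 it was high in DMSO replicates 2 and 3, and its log2 difference of -1.09 did not pass (unadjusted p = 0.019, adjusted p = 1). Jak2 and Ifngr2 had log2 differences of 0.46 and 0.42.

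Of 10 genes that act on PD-L1 protein or on PD-1 signalling, all tested, 9 were above 0, 1 below and 0 passed, with a median of 0.20. Cmtm6, which protects PD-L1 from degradation, was at 23.6 ± 3.72 RPKM in Vismodegib and 19.8 ± 5.46 RPKM in DMSO. Spop, Cdk5 and Inpp5d had log2 differences of 0.44, 0.24 and 0.22.

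No immune cell marker passed the test. The T cell list had 11 of 16 members tested, 4 above 0 and 7 below, with a median of -0.08. Its summed level was 70.7 to 116 RPKM in Vismodegib and 69.8 to 86.8 RPKM in DMSO, with no member listed at 0. Cd8a was at 1.78 ± 0.662 RPKM in Vismodegib and 1.69 ± 0.251 RPKM in DMSO, and Cd4 at 0.445 ± 0.283 RPKM in Vismodegib and 0.474 ± 0.299 RPKM in DMSO. Trbc1, Cd2, Lck and Zap70 had the smallest p of the list, with differences of 0.83, -0.29, -0.28 and -0.22. Regulatory T cell genes had 2 of 7 measured members tested, with a median of -0.12 (Tnfrsf4 -0.36, Tnfrsf18 0.13), summed 2.78 to 4.74 RPKM in Vismodegib and 3.85 to 4.24 RPKM in DMSO, and Ccr4 was listed at 0 in some libraries.

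The NK cell list had 4 of 8 measured members tested, 1 above 0 and 3 below, with a median of -0.15. Its summed level was 31.4 to 53.9 RPKM in Vismodegib and 23.7 to 97.2 RPKM in DMSO, and the highest was DMSO replicate 2, as for Tigit. Most of that sum was the granzyme gene Gzma, at 32.6, 48.2 and 25.9 RPKM in Vismodegib and at 16.8, 91.3 and 42.0 RPKM in DMSO. Klrd1, the tested member above 0, was instead lowest in DMSO replicate 2. It was at 2.44, 2.05 and 2.52 RPKM in Vismodegib and at 2.83, 0.919 and 1.54 RPKM in DMSO. Ncr1, an NK receptor, was low in all libraries, at 0.390, 0.106 and 0.202 RPKM in Vismodegib and at 0.121, 0.130 and 0.0803 RPKM in DMSO. Prf1, the pore-forming protein of lytic granules, was at 1.65 ± 0.182 RPKM in Vismodegib and 3.00 ± 0.626 RPKM in DMSO (log2 difference -0.69, limma unadjusted p = 0.0249, adjusted p = 1). Its groups did not overlap, as in 0.745% of all genes tested while lower in Vismodegib. The part of these cells in the level of Tigit was not tested.

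The macrophage list had 13 of 15 members tested, 4 above 0 and 9 below, with a median of -0.20. Its summed level was 899 to 2886 RPKM in Vismodegib and 1427 to 2391 RPKM in DMSO, with no member listed at 0. Adgre1, the gene of the surface marker F4/80, was at 2.34 ± 1.13 RPKM in Vismodegib and 1.74 ± 0.626 RPKM in DMSO. Cd14 was higher in all 3 Vismodegib libraries (24.2 ± 11.1 against 11.7 ± 2.10 RPKM in DMSO), as were 4.29% of all genes tested, but did not pass. Cd68, Trem2 and C1qb had differences of -0.49, -0.29 and -0.31. Dendritic cell genes had 6 of 13 tested, 4 above 0 and 2 below, with a median of 0.18, and summed 79.7 to 119 RPKM in Vismodegib and 75.8 to 83.3 RPKM in DMSO, with Cd209a and Siglech listed at 0 in some libraries. Fscn1 (0.50), Ccr7 (0.48), Irf8 (-0.36) and Ccl22 (0.33) led that list. The B cell list had 2 of 7 tested, both below 0, and summed 0.435 to 2.30 RPKM in Vismodegib and 0.855 to 5.61 RPKM in DMSO, with Ms4a1, Pax5 and Blk listed at 0 in some libraries. The neutrophil list had 8 of 10 tested, 1 above 0 and 7 below, with a median of -0.30, and summed 25.6 to 132 RPKM in Vismodegib and 32.1 to 228 RPKM in DMSO, with Ly6g, Mmp8, Ngp and Camp listed at 0 in some libraries.

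Markers of other tissue were mostly above 0, and 0 passed. The epithelial list had 7 of 9 tested genes above 0 with a median of 0.70, the fibroblast and pericyte list 10 of 10 with 0.61, and the endothelial list 5 of 5 with 0.39. The adipocyte list had 5 of 5 above 0 with a median of 1.27 and the skeletal muscle list 7 of 7 with 1.497. Summed levels overlapped between the groups in each of these lists. Epithelial genes summed 2763 to 2953 RPKM in Vismodegib and 1810 to 2993 RPKM in DMSO, and endothelial genes 61.7 to 135 and 46.5 to 194 RPKM. Skeletal muscle genes summed 156, 121 and 86.0 RPKM in Vismodegib, against 24.2, 156 and 17.6 RPKM in DMSO. Adipocyte genes summed 32.9, 32.0 and 8.36 RPKM in Vismodegib, against 15.2, 6.32 and 4.75 RPKM in DMSO. Over all genes tested, 58.4% were above 0 and 41.6% below. With median-ratio scaling, 5638 of 11788 genes were above 0 and 6150 below. Among the checkpoint genes, 4 of 9 were above 0 and 5 below, with a median of -0.15. The part of tissue makeup in the checkpoint levels was not tested.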

How the data were processed

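RNA sequencing of 6 tumour libraries gave 1 deposited table of RPKM values per gene, made by the authors. The submitters' processing notes name mm10 and, as tools, Partek, SAMtools, HISAT2, STAR, cutadapt and bcl2fastq 2.17. What each tool did, which annotation was used and whether strand was used is not given in the sources used here.

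Values were analysed as log2(RPKM + 0.5), so folds of low genes are understated. Genes averaging 0.5 RPKM or more were compared with limma 3.58.1 (R 4.3.3; trended eBayes, Benjamini-Hochberg adjustment over all genes tested, threshold 0.05). The limma fit alone was tested on simulated data, with independent noise, and the outcome is not reported here. Ctla4, relative levels, balances and pairs were compared by two-sided exact permutation over libraries. Relative levels subtract a list's mean log2 value within each library.

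Depth came from 6992 genes with 1 transcript in GENCODE M21. Between 84.3% and 85.7% of values of at most 20 reads came out whole within 0.02 reads. Counting errors cover counting only.

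The members and the 18 lists (201 genes, 197 in the table) were chosen with earlier results of these data known. All members and a set of context genes were named, plus up to 4 tested genes per list with the smallest p and the 3 genes most like each tested member. Prose names also the genes listed at 0. Alternatives covered pseudocount, filter, scaling, variance model, library weights, replicate number and left-out libraries. The GAAA core was searched after the longer motifs gave no match. Some items covered by these rules are not reported here. Protein sequences were not used here.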

Additional observations from a re-analysis of the deposited data

How the results depend on the processing

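Over the whole table, 0 genes passed limma's adjusted threshold in the main comparison, with 266 at an unadjusted p under 0.05. The count was 420 with library weights (306 higher and 114 lower in Vismodegib), and the causes of this and the following changes were not tested. Leaving out 1 library gave 0 to 19 genes, the 19 (11 higher, 8 lower) without DMSO replicate 1, and no member was among them. With the replicate number as a block, 1 gene passed and no member did. Deviations of equally numbered libraries correlated at 0.003, 0.04 and -0.30, and those of unequally numbered libraries at -0.23 to 0.30. With 3 libraries per group, these values cannot decide whether the numbers pair the libraries.

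With library weights Cd274, Pdcd1lg2 and Havcr2 passed, and under no other alternative did a member pass. Cd274, Pdcd1lg2, Havcr2, Tigit, Cd86 and Ctla4 kept their direction under every alternative run. Leaving out 1 library gave Cd80 -0.0049 to 0.39, Vsir -0.17 to 0.41, Pdcd1 -0.018 to 0.41 and Lag3 -0.52 to 0.090, negative for Cd80 without Vismodegib replicate 1 and for Pdcd1 without DMSO replicate 3, and positive for Lag3 without DMSO replicate 1. Vsir was -0.085 without Vismodegib replicate 1, -0.00034 without Vismodegib replicate 3 and -0.17 without DMSO replicate 2. Relative to the T cell list, Lag3 ran from -0.53 to 0.12, above 0 without Vismodegib replicate 1 (0.12), DMSO replicate 1 (0.024) or DMSO replicate 3 (0.040). Relative to the macrophage list, Vsir ran from -0.050 (without DMSO replicate 2) to 0.38. Cd80 over Ctla4 was -0.16 with a pseudocount of 0.1 and ran from -0.29 without DMSO replicate 2 to 0.24, with -0.13 without Vismodegib replicate 1. Cd86 over Ctla4 ran from -0.042 without DMSO replicate 2 to 0.57. Ctla4 rests on the fewest reads of the members, and with 3 libraries per group no exact test between the groups can go below p = 0.1.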

Other observations

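Other inhibitory receptors and ligands split evenly: of 18 measured, 8 were tested, 4 above 0 and 4 below, with 0 past limma's threshold and a median of 0.03. Cd276, which encodes the B7 family ligand B7-H3, was at 20.5, 17.8 and 23.0 RPKM in Vismodegib, against 17.3, 10.4 and 14.9 RPKM in DMSO. Its groups did not overlap, as in 5.03% of all genes tested, and its log2 difference of 0.53 did not pass (limma, unadjusted p = 0.0859, adjusted p = 1). Cd200, the ligand of an inhibitory receptor of myeloid cells, was at 3.36 ± 1.59 RPKM in Vismodegib and 1.79 ± 1.04 RPKM in DMSO. Klrc1 and Lilrb4a had log2 differences of 0.38 and -0.26.

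Costimulatory genes of the tumour necrosis factor family had 5 of 11 measured members tested, 3 above 0 and 2 below, with a median of 0.11. Cd40, which antigen-presenting cells carry, was at 2.14 ± 0.254 RPKM in Vismodegib and 1.58 ± 0.624 RPKM in DMSO, and Tnfsf9 at 10.5 ± 4.62 RPKM in Vismodegib and 13.0 ± 7.05 RPKM in DMSO. Regulators of T cell exhaustion had 8 of 14 tested, 5 above 0 and 3 below, with a median of 0.04. Tcf7, a factor of stem-like T cells, had a log2 difference of 0.45, while Nfatc1, Prdm1 and Batf had 0.16, 0.18 and -0.09. None of these genes passed.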
